A study of Mus musculus with 6 samples.

Results

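The Ifi200 cluster is a row of PYHIN genes on mouse chromosome 1. Its 10 listed members (Aim2, Ifi214, Ifi213, Ifi207, Ifi204, Mndal, Ifi211, Ifi203, Ifi202b and Ifi205) were found by symbol among 54532 annotated genes in conventional type 1 dendritic cells (cDC1s) grown from bone marrow. They were selected because their counts in these same libraries had shown opposite differences between adjacent genes, so the differences between genotypes in the members are a description. The calls that the fit over all genes made on them are listed beside the share over all genes and are no independent test. The control cells (WT in what follows) were c-Jun/JunB fl/fl, carrying floxed alleles of both AP-1 genes and no Cre. The deleted cells (KO in what follows) were labelled c-Jun/JunB fl/fl Itgax-Cre and are called Δ/Δ Itgax-Cre by the study: the same floxed alleles, with Cre driven by the Itgax (CD11c) promoter. Bone marrow of both genotypes was cultured with 80 ng/mL FLT3L, the growth factor that drives dendritic cell formation, and the sort on day 8 kept cells with CD24 and CD11c and without B220, CD115 and CD172a. Each genotype had 3 libraries. The study's methods give the mice as female and male, 8 to 16 weeks of age and of a mixed 129 Sv and C57BL/6 background. From which strain chromosome 1 came in each culture is not stated in the sources used and was not measured here. For genes in and near the cluster, differences by strain of origin and by c-Jun/JunB genotype therefore cannot be told apart. The reads were aligned to the mm10 reference, which comes from C57BL/6J.

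PYHIN proteins join a pyrin domain, through which they bind other proteins, to HIN domains, through which they bind DNA. Many of the genes are induced by interferon in myeloid cells. Aim2 protein senses DNA in the cytosol and assembles an inflammasome with the adaptor ASC and caspase-1. Ifi202b encodes p202, which has HIN domains but no pyrin domain and can hold Aim2 in check, and Ifi204 protein is linked to DNA sensing through STING. The makeup and expression of the cluster are known to differ between inbred mouse strains.

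The members lie within 680 kb, at chr1:173350879-174031810 in GRCm38, with 9 genes on the minus strand and Aim2 on the plus strand. In the same stretch lie Ifi206, Ifi209, Ifi208 and the pseudogene Ifi203-ps, 4 family genes that are not listed members. Ifi211 lies within the span of the Mndal annotation, and Mndal and Ifi203 share 37 exon bases on the same strand. Because the genes arose by duplication, their transcripts share sequence, which bears on how many reads can be placed. Of all 75-base windows of the Ifi211 transcript, the length of 1 sequenced end, 63.6% also occur in a transcript of another gene, mostly Ifi205. The share was 16.6% for Ifi205, 13.2% for Ifi204, 11.1% for Mndal and 10% for Ifi214, whose shared windows are all with Ifi209. It was 8.07% for Ifi213, 5.71% for Ifi203 and 2.8% for Ifi207. No such window of Aim2 or Ifi202b was shared with another gene. Reads placed at more than 1 site were left out of the gene counts. The windows are single ends, whereas the reads were paired, so the share of Ifi211 reads lost this way was not measured.

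RefSeq start sites were given for 9 of the 10 members in GRCm38.p6, all except Ifi204. Mndal and Ifi203 have 2 start sites each, and a member was counted for a motif where either window held it. For Ifi207, Ifi202b and 1 of the 2 starts of Ifi203, the first 20 bases after the start occur in no GENCODE transcript of the gene. The windows of these starts, and distances to them, therefore rest on RefSeq alone. In the window from 250 bases before to 50 bases after the start, 7 of these 9 members hold GAAANNGAAA, the spacing of GAAA blocks found in interferon response elements, on either strand. The motif occurs in 3.44% of the 32851 promoters of the same length in the table. As the members arose by duplication, their windows are not independent of each other, and no excess is read from these shares. The blocks are shown here because near-identical copies stand before Ifi214, which was higher in KO cells, and before 6 members that were lower. Capitals mark the block, and each line runs 5′ to 3′ on the strand of the gene.
Ifi214: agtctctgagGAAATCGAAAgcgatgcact
Ifi213: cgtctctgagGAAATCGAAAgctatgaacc
Ifi207: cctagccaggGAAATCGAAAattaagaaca
Mndal: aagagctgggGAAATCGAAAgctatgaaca
Ifi211: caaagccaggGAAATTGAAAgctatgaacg
Ifi203: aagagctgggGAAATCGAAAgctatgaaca
Ifi205: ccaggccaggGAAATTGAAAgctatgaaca
In this order the lines lie at chr1:173536017-173536046, chr1:173599326-173599355, chr1:173741831-173741860, chr1:173880204-173880233, chr1:173913064-173913093, chr1:173942508-173942537 and chr1:174031870-174031899, all on the minus strand. Read in the same order, the blocks begin 79, 73, 41, 36, 37, 35 and 134 bases before the start. The form GAAATCGAAA occurs in 16 of the 32851 promoters (0.0487%), 5 of which belong to members and 2 to Ifi206 and Ifi208.

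Ifi203 and Ifi202b, neighbours 19895 bases apart and the most unlike pair in the counts, also differ in these windows. That of Ifi203 holds TGATTCA, a match to TGANTCA, the pattern searched here for AP-1 sites, in which N is any base. Whether AP-1 binds this form was not tested. The match and the GAAA block are both in capitals (chr1:173942443-173942742, minus strand).
Ifi203: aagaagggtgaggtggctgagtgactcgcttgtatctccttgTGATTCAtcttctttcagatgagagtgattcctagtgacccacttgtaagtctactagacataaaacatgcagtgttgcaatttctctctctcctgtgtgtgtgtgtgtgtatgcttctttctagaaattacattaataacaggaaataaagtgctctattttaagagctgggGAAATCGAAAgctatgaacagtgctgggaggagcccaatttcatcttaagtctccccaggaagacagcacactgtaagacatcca
The window of Ifi202b, placed by its RefSeq start alone, holds neither of these motifs. Capitals mark a match to TTCNNNGAA, the site of STAT proteins (chr1:173982795-173983094, minus strand).
Ifi202b: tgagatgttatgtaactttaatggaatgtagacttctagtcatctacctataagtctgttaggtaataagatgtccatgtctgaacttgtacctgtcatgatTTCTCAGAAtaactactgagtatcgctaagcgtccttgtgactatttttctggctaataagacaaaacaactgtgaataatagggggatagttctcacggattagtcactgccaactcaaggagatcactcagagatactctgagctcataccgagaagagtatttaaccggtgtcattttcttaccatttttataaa
TGANTCA, with any base at N, was found, searched on both strands, in 2 of the 9 members, Ifi203 and Mndal, and in 7.81% of all promoters. The form was TGATTCA in Ifi203, and TGAGTCA and TGATTCA in Mndal. Of the unlisted family genes, Ifi209 held TGACTCA. The share of all promoters with each form was not counted. TTCNNNGAA was found in Ifi202b alone of the 9 and in 8.3% of all promoters. Aim2 held none of the 3 motifs. None of the matches overlapped another.

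The libraries held 21693217 to 26788296 reads on genes, and 12894 genes passed the filter on low counts, all 10 members among them. Values below are CPM, the reads of a gene per 1000000 reads on genes after TMM scaling, a scale for comparing 1 gene between libraries. Of the deleted genes, Junb measured 314, 274 and 413 CPM in WT 1 to 3 and 110, 171 and 211 CPM in KO 1 to 3, with no overlap. Jun measured 70.9, 52.4 and 63.1 CPM in WT and 48.1, 44.2 and 60.4 CPM in KO, so that its read counts alone did not separate the labelled genotypes. In sorted bulk cells, fewer cells of a type and less RNA per cell cannot be told apart. Replicates are called individual mice in a legend of the study, while the labels give only their numbers.

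Aim2, the DNA sensor of the inflammasome, measured 119, 124 and 127 CPM in WT and 139, 125 and 160 CPM in KO. The genotypes overlapped, and the log2 fold change of KO against WT was 0.19 (SE 0.09). It was the only member whose values overlapped between genotypes. Of the other 9, 3 were higher and 6 were lower in every KO library than in any WT library, against 26.0% of all tested genes without overlap in either direction. A gene was called where edgeR's quasi-likelihood test gave an adjusted p under 0.05 over all genes and the log2 fold change reached 1 or −1, which held for 1.86% of all tested genes, 0.993% higher and 0.869% lower in KO. Among the members, Ifi214 and Ifi202b were called higher and Ifi207 and Ifi211 lower. Without the limit on fold change, 3.88% of all tested genes had an adjusted p under 0.05, as did 5 members, these 4 and Ifi205. As the members were selected on this contrast, nothing is read from these counts.

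**Figure D1:**
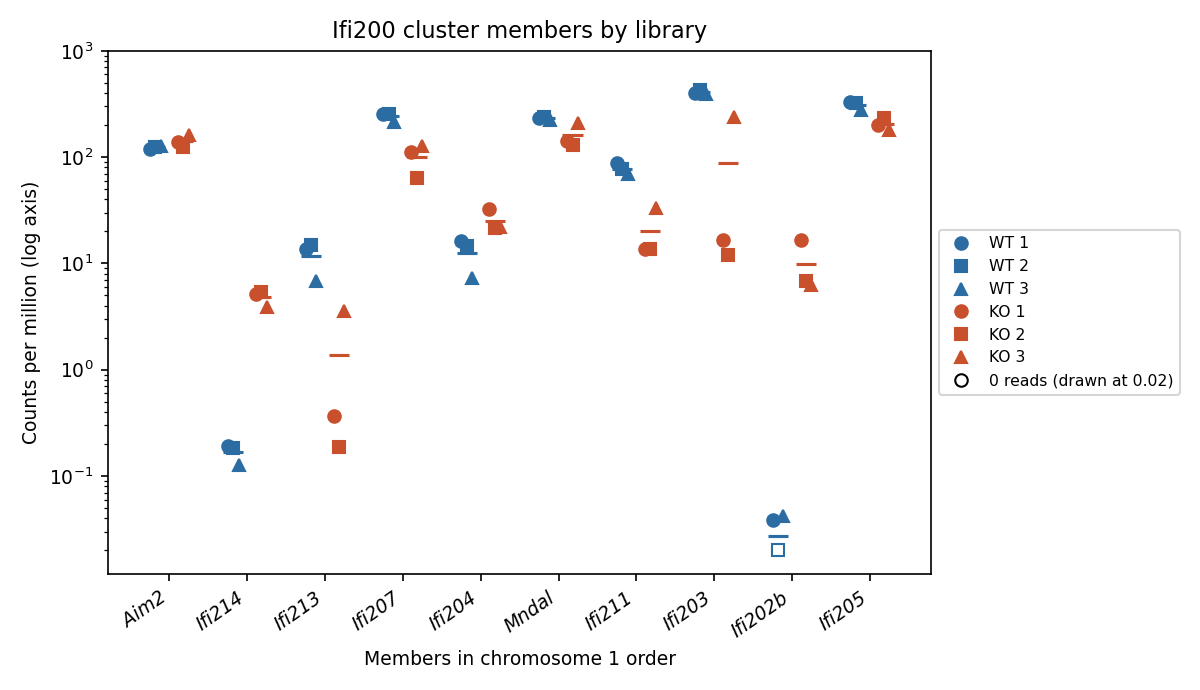
CPM of the 10 members in each library, on a log axis and in chromosome 1 order. Points are libraries and short lines are group means; the WT 2 value of Ifi202b, 0 reads, is drawn at 0.02. Ifi214, Ifi204 and Ifi202b lie higher in all 3 KO libraries, 6 members lie lower, and KO 3 stands apart from KO 1 and KO 2 for Ifi203 and Ifi213.

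Ifi202b, the inhibitor of Aim2, had 1, 0 and 1 reads in WT 1 to 3 and 406, 146 and 143 reads in KO 1 to 3. In CPM this was 0.0385, 0 and 0.0424 in WT against 16.5, 6.8 and 6.29 in KO. The gene was thus near the limit of detection in every WT library and present in every KO library, with KO 1 the highest. The ratio of the summed reads, scaled to library size, was 386 (95% exact interval 107 to 3196, for counting error only). The fitted log2 fold change was 8.30 (SE 0.73), a value that depends on the prior count when so few reads stand in WT and was 6.51 at its lowest over the other settings.

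Ifi214, a PYHIN gene at the Aim2 end of the cluster, had 5, 5 and 3 reads in WT and 128, 115 and 89 reads in KO. Its CPM were 0.193, 0.185 and 0.127 in WT and 5.19, 5.36 and 3.92 in KO, and the KO libraries stayed close to each other. The ratio of summed reads was 28.4 (95% exact interval 16.4 to 53.9), and the log2 fold change was 4.79 (SE 0.31). Ifi204, linked to STING signalling and the third member without overlap above WT, measured 16.1, 14.5 and 7.25 CPM in WT and 32.2, 21.5 and 22.2 CPM in KO. WT 3 was the low library and KO 1 the high library, and the log2 fold change was 1.00 (SE 0.31).

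Ifi203 had the highest CPM of all members in WT, with 400, 429 and 393 in WT 1 to 3. In KO 1 and KO 2 it measured 16.5 and 12 CPM, and in KO 3 it measured 236 CPM. The KO libraries therefore differed more among themselves than KO 3 differed from WT, and the log2 fold change of −2.21 carried an SE of 1.04. Without KO 3 it was −4.83, and without KO 2 it was −1.69. Ifi213, a PYHIN gene next to Ifi214, followed the same order of libraries at a lower level. It measured 13.8, 14.9 and 6.87 CPM in WT and 0.365, 0.186 and 3.56 CPM in KO, again with KO 3 nearest to WT. Its log2 fold change was −3.11 (SE 0.90) and was −5.38 without KO 3.

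Ifi211 measured 88.2, 76.8 and 68.9 CPM in WT and 13.6, 13.7 and 33 CPM in KO. Ifi207 measured 255, 252 and 215 CPM in WT and 111, 63.7 and 126 CPM in KO. Their log2 fold changes were −1.95 (SE 0.35) and −1.27 (SE 0.23). Both PYHIN genes kept a clear gap between genotypes, with KO 3 again the highest KO library. Mndal measured 233, 238 and 224 CPM in WT and 141, 130 and 208 CPM in KO, so that KO 3 came close to WT 3. The log2 fold change of Mndal was −0.54 (SE 0.17). Ifi205 measured 327, 320 and 279 CPM in WT and 199, 231 and 179 CPM in KO, with a log2 fold change of −0.60 (SE 0.11). Ifi205 was the only lower member in which KO 3 was not the highest KO library but the lowest.

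KO 3 was thus the highest KO library in 5 of the 6 lower members, while the same held for 25.4% of all tested genes that were lower in KO. Set between the mean of KO 1 and KO 2 and the mean of WT on the CPM scale, KO 3 lay 75.5% of the way to WT for Mndal and 56.4% for Ifi203. It lay 30.1% of the way for Ifi211, 28.5% for Ifi213 and 25.1% for Ifi207, and on the far side, at −38.4%, for Ifi205. For Ifi203 KO 3 was 16.5 times and for Ifi213 12.9 times the mean of KO 1 and KO 2. Among tested genes with a read in KO 1 or KO 2, only 5 reached 10 times, the others being Adgrl2, Camk2b and Cd14, named after their values were seen. Genes without a read in both KO 1 and KO 2 have no such ratio and were not counted. Cd14, a monocyte marker, measured 0.73, 1.26 and 12.1 CPM in KO 1 to 3. For the higher members KO 3 did not stand apart in this way: Ifi202b and Ifi204 in KO 3 were close to KO 2, and Ifi214 was 3.92 against 5.19 and 5.36 CPM. In WT the libraries were more even, with WT 3 the lowest in 8 of the 10 members, against 35.7% of all tested genes.

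Along the chromosome the direction differed between some neighbours, the pattern for which the members were selected. Of the 14 family genes in the stretch, 13 were tested, and 5 of their 12 adjacent pairs joined a gene that was higher without overlap to one that was lower without overlap. These were Ifi206 and Ifi214, Ifi214 and Ifi213, Ifi207 and Ifi204, Ifi203 and Ifi202b, and Ifi202b and Ifi205. Each of these pairs holds Ifi214, Ifi204 or Ifi202b. Opposite signs of any size stood in 7 of the 12 pairs. The share among adjacent genes elsewhere was not computed, so nothing is read from these counts. Ifi207 and Ifi204 are 5545 bases apart, and Ifi202b and Ifi205 are 29253 bases apart. Of the unlisted family genes, Ifi206 measured 1.46, 0.667 and 0.509 CPM in WT and 0.203, 0.14 and 0.352 CPM in KO. Ifi209 measured 212, 206 and 166 CPM in WT and 108, 103 and 157 CPM in KO, with KO 3 once more nearest to WT and a log2 fold change of −0.66 (SE 0.17). Ifi209 shares 817 of its 75-base windows with Ifi214. Neither Ifi206 nor Ifi209 was called (edgeR adjusted p = 0.132 and 0.0899). Ifi203-ps stayed between 0.14 and 0.73 CPM in the 6 libraries, and Ifi208 was under the filter, with at most 11 reads in a library.

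**Figure D2:**
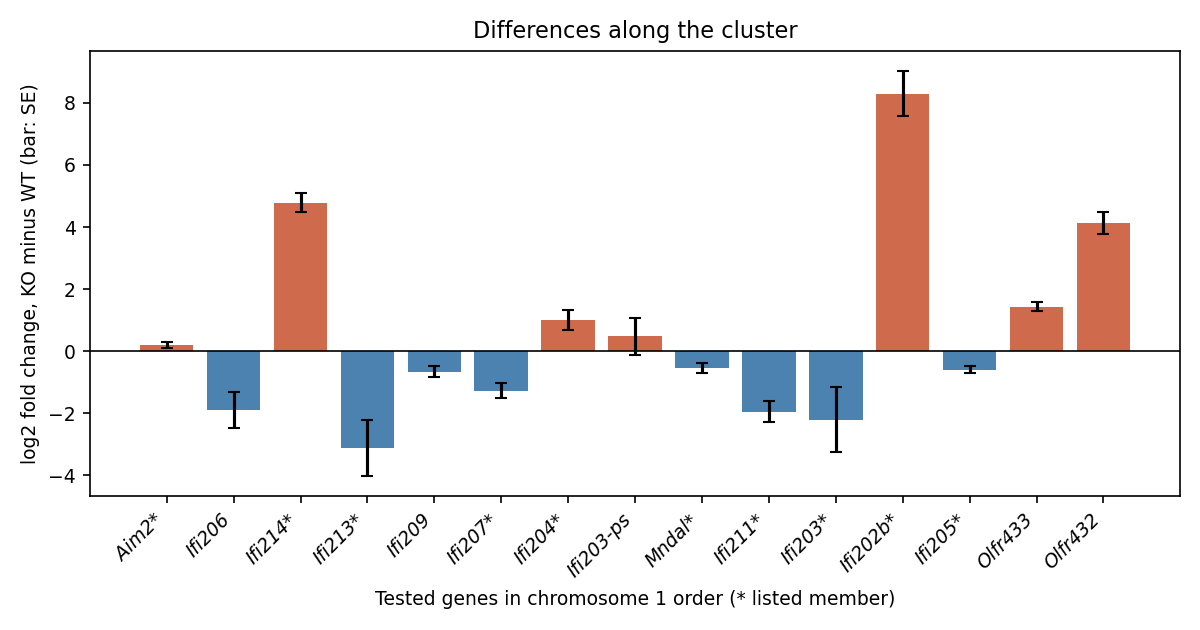
Fitted log2 fold change of KO against WT (bars, with the SE) for the 13 tested family genes and the adjacent Olfr433 and Olfr432, in chromosome 1 order and not to scale in distance. Listed members carry an asterisk. The direction turns between several neighbours, with 4.79 for Ifi214 beside −3.11 for Ifi213 and 8.30 for Ifi202b beside −2.21 for Ifi203.

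Within the stretch of the cluster and 1 Mb on either side of it, 67 genes outside the family were annotated, of which 41 had no read in any library and 12 were tested. The genes called, both higher in KO, were Olfr433 and Olfr432, 2 olfactory receptor genes that follow Ifi205 directly. Olfr433, 8894 bases beyond Ifi205, measured 5.51, 6.71 and 7.63 CPM in WT and 17.3, 17.9 and 18.2 CPM in KO. It rose by a log2 fold change of 1.43 (SE 0.15, edgeR adjusted p = 0.00434). Olfr432, 4793 bases further on, measured 0.732, 0.445 and 0.254 CPM in WT and 9.81, 8.99 and 6.65 CPM in KO, and rose by a log2 fold change of 4.13 (SE 0.37, edgeR adjusted p = 0.00344). In both genes the 3 KO libraries lay above all WT libraries. As for the members, differences by strain of origin and by genotype cannot be told apart here. None of the other 10 tested neighbours was called. Gm18445, an unprocessed pseudogene inside the stretch between Ifi202b and Ifi205, measured 0.462, 0.704 and 0.254 CPM in WT and 1.26, 1.72 and 1.23 CPM in KO, without overlap, and edgeR's adjusted p was 0.0978. It shares 43 of the 75-base windows of Ifi207. Among the others Slamf9, a surface receptor gene of the SLAM family, measured 17.1 ± 1.07 CPM in WT and 8.5 ± 4.67 CPM in KO (SD, n = 3 each), and edgeR's adjusted p was 0.216. Tagln2, an actin-binding protein gene, measured 488 ± 32.1 and 387 ± 14.9 CPM (SD, n = 3 each) and missed the limit of fold change at −0.34 (SE 0.07, edgeR adjusted p = 0.0404). The median log2 fold change of the 12 was −0.32, against 0.00 over all tested genes. Both calls held under every setting run.

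Summed over the members, reads were fewer in KO cells. The sum was 1452, 1470 and 1320 CPM in WT 1 to 3 and 674.1, 609 and 977.5 CPM in KO 1 to 3, which gives 1414 ± 81.8 and 753.5 ± 197 CPM (SD, n = 3 each). The genotypes did not overlap, and KO 3 was the highest of the KO libraries. Leaving Ifi203 out of the sum left 1052, 1041 and 927.7 CPM in WT and 657.5, 597 and 741.7 CPM in KO. Ifi203 supplied 27.6% to 29.7% of the members' CPM in the WT libraries, 2.45% in KO 1, 1.97% in KO 2 and 24.1% in KO 3. The share of Aim2 was 8.2% to 9.63% in WT and 16.3% to 20.6% in KO, although its own CPM overlapped. The 3 members higher in KO together gave 16.3, 14.7 and 7.42 CPM in WT and 53.8, 33.6 and 32.4 CPM in KO, a small part of the sum in either genotype.

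**Figure D3:**
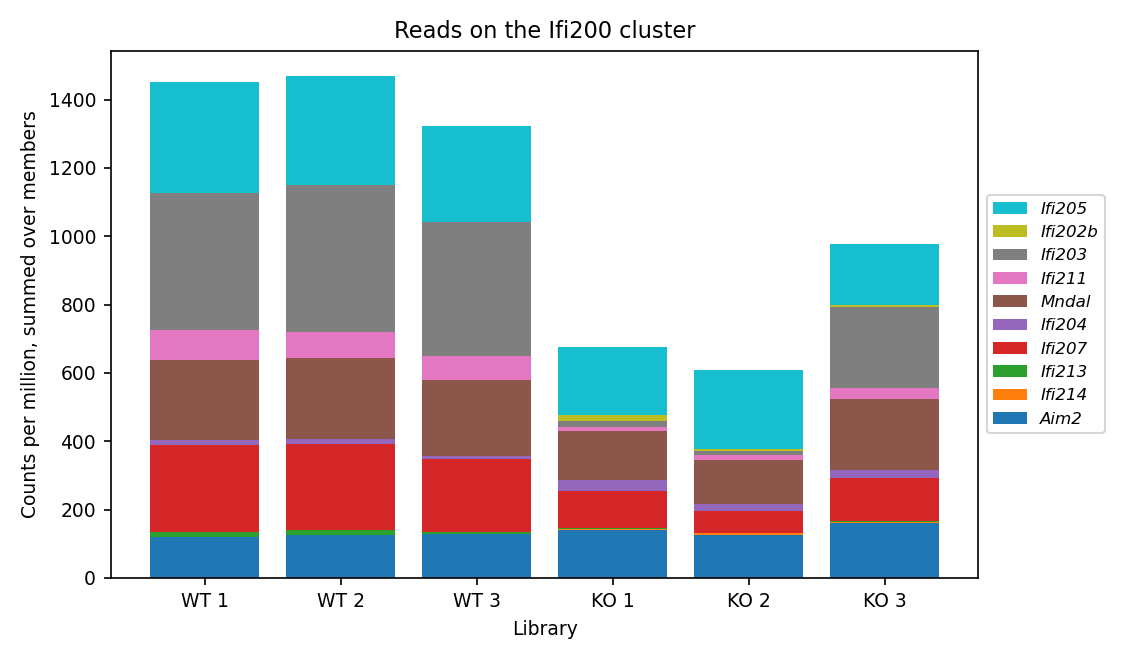
CPM summed over the 10 members in each library, with the part of each member stacked in chromosome 1 order. The WT sums lie between 1320 and 1470 CPM and the KO sums between 609 and 977.5 CPM, and the Ifi203 part is nearly absent from KO 1 and KO 2.

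Levels of different members were compared per length, as CPM per kilobase of merged exons. In WT cells the order began with Ifi205 (73.9 ± 6.21), Ifi207 (70.3 ± 6.62), Mndal (63.8 ± 1.96) and Ifi203 (60.7 ± 2.83; SD, n = 3 each), and the ranges of each neighbouring pair in this order overlapped. Ifi211 followed at 43.7 ± 5.44 and Aim2 at 35.3 ± 1.16, each apart from its neighbours. Neither length is corrected for shared sequence, which is 63.6% of the windows of Ifi211 and none of those of Aim2, so the place of Ifi211 is uncertain. Ifi204 (3.54 ± 1.32) and Ifi213 (1.73 ± 0.633) overlapped at a lower level, and Ifi214 and Ifi202b were last at means of 0.0208 and 0.0159. In KO cells the order of means began with Ifi205 (48.6 ± 6.26), Mndal (44 ± 11.7), Aim2 (40.3 ± 5) and Ifi207 (29.2 ± 9.47). Here too the ranges of each neighbouring pair overlapped, so this order is not settled. Ifi203, at a mean of 13.1, ranged from 1.79 to 35.2 between KO libraries and so had no settled place. Ifi202b, at 5.81 ± 3.38, stood beside Ifi204 at 7.1 ± 1.68, and Ifi213 was last at 0.201. With the longest coding transcript as the length, an alternative chosen after seeing the data, Ifi207 moved from place 2 to place 4 in WT, and Mndal and Ifi203 each moved up by 1. Ifi205 then ranged from 173 to 203, apart from Mndal at 111 to 117, and Aim2 at 41.9 to 44.8 lay within the range of Ifi211, 38.6 to 49.4.

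Of 25 tested genes of cytosolic DNA sensing and of inflammasomes outside the cluster, 3 (12%) were called, against 1.86% of all tested genes, and 6 were higher and 8 lower without overlap between genotypes (56% against 26.0% of all). Nlrc4, a sensor that activates caspase-1 after detection of bacterial proteins, was called higher. It measured 8.09, 10.5 and 10.7 CPM in WT and 21.2, 27 and 21.4 CPM in KO, a log2 fold change of 1.25 (SE 0.16, edgeR adjusted p = 0.0098). Irf7, a transcription factor of interferon induction, was called lower at −1.54 (SE 0.25, edgeR adjusted p = 0.0209), and Zbp1, a sensor of Z-form nucleic acid, was called lower at −1.43 (SE 0.27, edgeR adjusted p = 0.0325). The partners of Aim2 were not called: Pycard, which encodes ASC, measured 68.3 ± 2.84 CPM in WT and 80.8 ± 6.5 CPM in KO, and Casp1 measured 28.6 ± 1.68 and 37.9 ± 8.82 CPM (SD, n = 3 each). Tmem173, which encodes STING, measured 108 ± 4.81 and 133 ± 15.9 CPM, and Cgas, the enzyme that makes the ligand of STING, measured 39.7 ± 5.85 and 26.8 ± 7.3 CPM (SD, n = 3 each). Irf7 and Zbp1 also belong to the interferon-induced list described next and are counted in both. The list had a median log2 fold change of −0.07, against 0.00 over all tested genes. The 3 calls were lost without WT 1 and without WT 2, where no gene of the list was called by edgeR and 9 and 11 had an unadjusted p under 0.05, and 5 genes were called without KO 1 and without KO 2.

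Interferon-induced genes outside the cluster were mostly lower in KO cells. Of 48 tested genes, 43 were lower, against 6406 of all 12894 tested genes. Of the 48, 16 were called lower and 1 was called higher. This made 35.4% called, against 1.86% of all tested genes (0.869% lower and 0.993% higher). The list was written with earlier results of these data known, so its shares and p-values are a description and no independent test. The median log2 fold change was −0.89. The largest decreases among calls without overlap were those of Rtp4, a chaperone of receptors, and of Oas1a, Oas2 and Oas3, synthetases of the RNase L activator. Rtp4 fell from 3.42 ± 0.882 to 0.432 ± 0.192 CPM (SD, n = 3 each; log2 fold change −2.97, edgeR adjusted p = 0.0116), and Oas1a fell from 15.6 ± 4.85 to 2.21 ± 1.12 CPM (SD, n = 3 each; log2 fold change −2.81, edgeR adjusted p = 0.0189). For Oas2 and Oas3 the log2 fold changes were −2.76 and −2.40 (edgeR adjusted p = 0.00793 and 0.0237). The gene called higher was Ifi44l, with 0 reads in every WT library and 75.8, 44.9 and 43.3 CPM in KO 1 to 3. Against a floor of 3 reads over the WT group it was at least 1414-fold higher, and the median of the list stayed at −0.89 with this bound in place of the fit. Like Ifi202b, it was near or at 0 in WT and present in all KO libraries. The strain of origin of its locus was likewise not measured. The 17 calls became 2 without WT 1 and 2 without WT 2.

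The list also sets the libraries in order. Its median log2 ratio to the WT mean was 0.12, 0.06 and −0.20 in WT 1 to 3 and −0.95, −0.86 and −0.76 in KO 1 to 3 (pseudocount of 0.5 CPM). WT 3 was thus the lowest WT library in this list as in 8 of the members. KO 3 was the highest KO library here as in 5 of the lower members, but only just above KO 2, while Ifi203 in KO 3 was 16.5 times the mean of the other KO libraries.

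**Figure D4:**
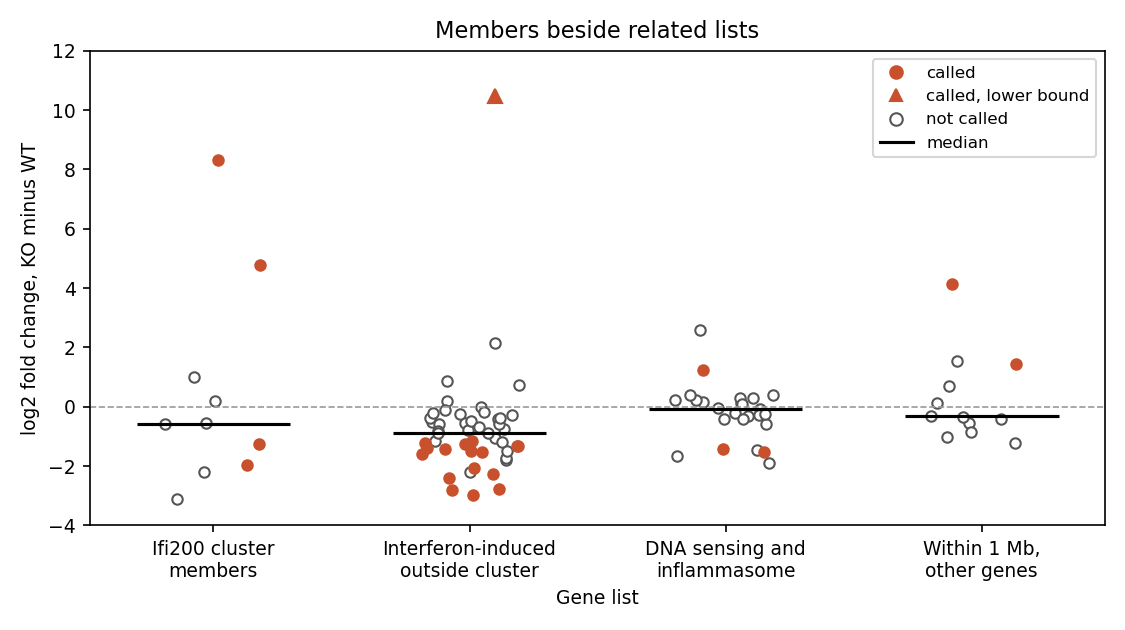
Log2 fold change of KO against WT for the members and for the tested genes of 3 lists outside the cluster. Filled points were called, open points were not, lines are medians, and the triangle is Ifi44l at its lower bound of 10.47. The interferon-induced genes lie mostly under 0 with a median of −0.89, whereas the members lie on both sides.

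Of 18 cDC1 markers Xcr1 and Itgax were called lower, and their summed level was 15441 to 15676 CPM in WT and 12448 to 14732 CPM in KO. Of 9 cDC2 markers Cd209a and Cd4 were called higher (sums of 224 to 364 and 518 to 746 CPM), and of 8 pDC markers, 6 of them tested, Ccr9 was called higher (186 to 200 and 216 to 255 CPM). None of 7 tested monocyte and macrophage markers of 9 was called, with sums of 2448 to 2869 and 3462 to 4308 CPM that came mainly from Lyz2 and Ccr2, and Mertk was under 1 CPM in every library. Some markers had an edgeR adjusted p under 0.05 and missed only the limit of fold change. Of cDC1 markers these were Tlr3, Ppt1, Rab7b and Snx22, all lower (adjusted p = 0.0226 to 0.0375). The others were higher: Klf4 of cDC2 (0.0321), and Ccr2 and Adgre1 of monocytes and macrophages (0.013 and 0.0317). No tested marker of B cells (5 of 6 tested), neutrophils (4 of 8), basophils and mast cells (1 of 5) or T and NK cells (1 of 8) was called, and the sums of these lists stayed at or under 49.9 CPM. The basophil and mast cell sum was 0.462 to 1.15 CPM in WT and 1.01 to 16.7 CPM in KO, highest in KO 2. Its markers Cpa3, Mcpt8 and Prss34 were under the filter and higher in every KO library than in any WT library, with 5, 103 and 13 reads of Mcpt8 in KO 1 to 3 and 0, 1 and 4 in WT. The part of these cells in the values of the members was not tested.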

How the data were processed

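Poly(A) RNA of 6 libraries of sorted FLT3L-derived cDC1s was sequenced by the authors as paired reads of 75 bases, aligned with STAR 2.6.1a (2-pass mode, mm10) and counted by it on Gencode genes. The deposited values are raw counts of uniquely placed reads per gene, unnormalized. The kit keeps strand, but the strand setting of the counts is not stated. Groups were taken from the genotype labels, 3 libraries each. Rows naming no gene stayed out of library sizes: 5.326% to 5.758% of reads were placed at several sites, 8.569% to 10.313% lay in no gene and 1.81% to 1.976% were ambiguous.

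Counts were fitted with edgeR 4.0.16 in R 4.3.3 (genotype as the sole term, TMM scaling, prior count 0.125, glmQLFit, glmQLFTest, and filterByExpr with min.count 10 and min.total.count 15), with Benjamini-Hochberg adjustment over 12894 genes. Calls required a log2 fold change of 1 or more in either direction beside an adjusted p below 0.05. The p-values set the difference between genotypes against the spread between these libraries. Names, positions and lengths came from GENCODE M21, in which 54495 of 54532 identifiers were found. Promoters are RefSeq's (GRCm38.p6). Alternatives were DESeq2 1.42.0 (Wald test and size factors), other filters, a replicate block, a prior count of 2, a wider window and leaving out each library. All members, other family genes, Jun and Junb are named, and of each list the called genes where they number 10 or fewer, otherwise the 4 of largest fold change in each direction among those called without overlap. Members and lists were chosen with earlier results of these data known.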

Additional observations from a re-analysis of the deposited data

How the results depend on the processing

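Over the alternatives, no log2 fold change of a member changed sign: of 120 values, 116 moved by less than the spread between libraries. Over all genes 240 were called, 385 with the DESeq2 Wald test and 74 to 579 when 1 library was left out. Leaving out 1 library gave 0 to 5 called DNA sensing and inflammasome genes (3 with all libraries; counts for edgeR, with 9 to 18 at an unadjusted p under 0.05), 2 to 19 interferon-induced genes (17) and 2 to 6 members (4). Of the members, Ifi214 and Ifi202b were called under all 11 settings with a call, Ifi211 was lost without any 1 of the WT libraries, Ifi207 in the same settings and under the replicate block, Ifi203 and Ifi213 were gained without KO 3, Ifi213 also with no filter, and Ifi204 with the DESeq2 Wald test. A window of 5 Mb added Itln1 (0 reads in WT; 25, 46 and 75 in KO) to the 2 neighbours called. The correlations of the deviations of same-numbered libraries were 0.091, −0.148 and 0.2, against −0.221 to 0.152 for the other combinations. So few values cannot decide whether same-numbered libraries were paired. With the replicate block 207 genes, 2 DNA sensing and inflammasome genes, 10 interferon-induced genes, 2 neighbours and 3 members were called. WT 1 and WT 3 hold 1 read each for Ifi202b, so depth limits its ratio.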
